A study of Mus musculus with 44 samples.

Results

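The E proteins, the Id proteins and the Bhlhe factors are basic helix-loop-helix transcription factors and their inhibitors, represented here by 8 genes: Tcf3, Tcf4 and Tcf12 (E proteins), Id1, Id2 and Id3 (Id proteins), and Bhlhe40 and Bhlhe41 (Bhlhe factors). They were followed in CH12.LX, a mouse B-cell lymphoma line that is activated by the bacterial cell wall component lipopolysaccharide (LPS) and is used to study how dioxin acts on antibody-forming cells. The members were all probe sets of the Affymetrix Mouse430_2 array annotated to 1 gene symbol among the 8, which gave 22 of 45037 probe sets. Of these, 21 passed the filter on low signal and were tested. Bhlhe40, Id1 and Id3 had 1 probe set each, Bhlhe41 had 2, Id2 and Tcf3 had 3 each, Tcf12 had 5 and Tcf4 had 6. For each gene the probe set with the highest mean over all arrays, called the leading probe set, is described first.

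The 11 groups held 4 arrays each, 44 in all. Cells of the TCDD groups received LPS and 10 nM TCDD (2,3,7,8-tetrachlorodibenzo-p-dioxin, a ligand of the aryl hydrocarbon receptor, AhR) and were harvested at 8, 12, 24, 36 or 48 h. Cells of the DMSO groups received LPS and 0.01% DMSO, the vehicle, and were harvested at the same times. The untreated group was harvested at 0 h. CH12.LX is 1 cell line, and the 4 replicates of each group were cultures handled on 4 separate days, so that arrays with the same replicate number share a day. LPS, vehicle and time in culture changed together between the untreated and the DMSO groups and cannot be told apart. In cell populations measured in bulk, fewer cells carrying a transcript and less transcript per cell also cannot be told apart.

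E proteins bind the E-box, the DNA sequence CANNTG, as dimers, and they drive the genes that commit cells to the B lineage and maintain them there. Id proteins have the dimerisation domain of this family but not its DNA-binding region, so an E protein bound by an Id protein no longer binds the E-box. Bhlhe40 and Bhlhe41 bind the E-box CACGTG as repressors, among others in the promoters of circadian clock genes, and have roles in lymphocyte activation and in B-1 cells.

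RefSeq promoter sequences of the GRCm38.p6 build, each running from 250 bases before to 50 bases after a gene's start, were found for 5 of the 8 genes (Bhlhe41, Id2, Id3, Tcf3 and Tcf12). Bhlhe40, Id1 and Tcf4 were not matched. The promoters of Bhlhe41, Id2 and Id3 are shown because they differ in the E-boxes that they carry. They lie at chr6:145865371-145865670 (minus strand), chr12:25096043-25096342 (minus strand) and chr4:136143572-136143871 (plus strand). Capitals mark every CANNTG.
Bhlhe41: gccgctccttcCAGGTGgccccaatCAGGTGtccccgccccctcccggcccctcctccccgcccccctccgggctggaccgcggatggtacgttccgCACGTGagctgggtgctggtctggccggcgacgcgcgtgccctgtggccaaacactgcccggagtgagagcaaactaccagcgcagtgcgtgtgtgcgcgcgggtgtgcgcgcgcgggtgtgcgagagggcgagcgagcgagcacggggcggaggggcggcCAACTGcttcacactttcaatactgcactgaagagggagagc
Id2: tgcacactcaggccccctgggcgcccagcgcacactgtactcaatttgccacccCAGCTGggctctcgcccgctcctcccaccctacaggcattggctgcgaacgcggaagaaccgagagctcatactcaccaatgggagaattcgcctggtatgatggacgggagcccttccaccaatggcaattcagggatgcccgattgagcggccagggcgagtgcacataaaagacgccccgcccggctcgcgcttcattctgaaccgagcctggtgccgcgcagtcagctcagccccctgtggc
Id3: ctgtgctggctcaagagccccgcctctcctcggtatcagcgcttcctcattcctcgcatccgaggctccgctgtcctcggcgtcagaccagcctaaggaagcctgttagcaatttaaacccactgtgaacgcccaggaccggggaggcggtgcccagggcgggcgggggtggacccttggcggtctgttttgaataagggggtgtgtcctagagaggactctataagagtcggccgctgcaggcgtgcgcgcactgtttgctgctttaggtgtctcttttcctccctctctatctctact

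The Bhlhe41 promoter held 4 CANNTG matches, of which 1 was CACGTG at position -153 from the start, and 2 matches of GCGTG, the core of the motif bound by AhR with its partner ARNT. The Id2 promoter held 1 CANNTG match, a CAGCTG at position -196, and 0 matches of GCGTG. The Id3 promoter held 0 CANNTG matches and 1 GCGTG match. All motifs were searched on both strands, GCGTG also as CACGC, and CACGTG and CAGCTG are themselves forms of CANNTG. Of 32851 RefSeq promoters of the same length, 72.3% held CANNTG, 7.15% held CACGTG, 16.3% held CAGCTG and 32.4% held GCGTG or CACGC. A match is a description of the letters only.

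The labelled TCDD groups carried the known AhR response. Cyp1a1, the cytochrome P450 most closely tied to AhR, was higher in TCDD than in DMSO cells by 5.21, 4.94, 6.01, 5.51 and 4.50 on the log2 scale at 8, 12, 24, 36 and 48 h, and Tiparp, an AhR-induced enzyme that dampens AhR signalling, by 1.18 to 1.58. Cyp1a1 was also higher in DMSO than in untreated cells, by 2.15 at 8 h and 2.40 at 12 h. The 5 B-cell markers with a probe set (Cd79a, Cd79b, Ms4a1, Cd22 and Ighm) all passed the filter, and their summed signal was 9211 to 18210 in TCDD and DMSO arrays, against 23200 to 26900 in untreated arrays. Of the T-cell markers 4 of 6 passed, with summed signals of 701.7 to 1229 over all arrays, and group means, on a log2 scale whose lowest possible value is 4, were 8.62 to 9.38 for Cd8a, 6.49 to 8.65 for Cd28, 4.69 to 5.97 for Cd3d and 4.59 to 4.86 for Cd4. Of the myeloid markers 4 of 6 passed, with sums of 910.1 to 2333, and group means were 9.43 to 10.67 for Cd68 and 7.31 to 9.21 for Adgre1, while Itgam and Lyz2 reached 5.80 and 6.08. Arrays of the same group correlated with r from 0.949 to 0.980. The 4 arrays that stood apart in technical measures were untreated replicate 4 and DMSO 12 h replicate 4, with median signals of 99.2 and 87.9 against a median of 55 over arrays, and untreated replicate 3 and DMSO 48 h replicate 2, with 3' to 5' log2 ratios of the transferrin receptor control of 3.34 and 3.12 against a median of 1.19.

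Bhlhe40 was higher in TCDD than in DMSO cells at every time, and of its relatives only 1 probe set, of Tcf3, was called, at 1 time. Differences between TCDD and DMSO cells were tested with limma over all 25237 probe sets that passed the filter, and a difference was called at a Benjamini-Hochberg adjusted p under 0.05. Of the 21 member probe sets, 1 was called at 8 h, 2 at 12 h, 1 at 24 h, 1 at 36 h and 1 at 48 h. Over all probe sets tested, 2.52%, 5.80%, 4.74%, 3.55% and 5.98% were called at these times, of which 1.74%, 3.77%, 3.19%, 2.27% and 3.12% were higher and 0.785%, 2.03%, 1.55%, 1.28% and 2.86% lower. The members' counts were near the background at each time. The Bhlhe40 probe set was the one called higher at every time, as were 0.460% of all probe sets tested. The median difference over the 21 probe sets lay between -0.01 and 0.13 at the 5 times, against -0.03 to 0.00 over all probe sets.

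**Figure D1:**
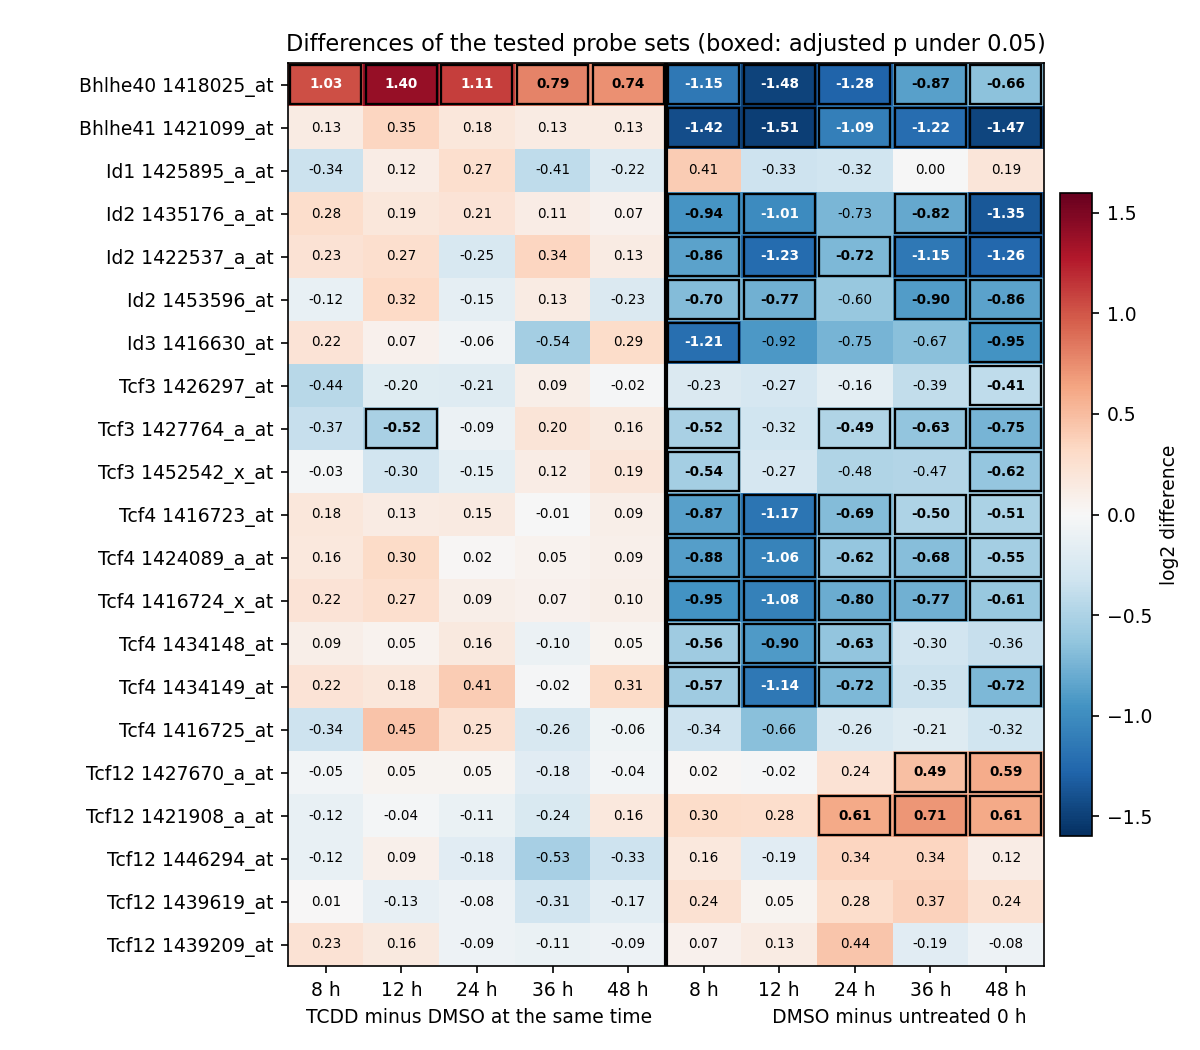
Log2 differences of the 21 tested probe sets (rows) between TCDD and DMSO cells at the same time (left 5 columns) and between DMSO cells and untreated cells (right 5 columns), with calls at an adjusted p under 0.05 boxed. Bhlhe40 was called in all 10 columns, and its differences ran from 0.74 to 1.40 on the left and from -1.48 to -0.66 on the right.

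The E proteins come first. Tcf3 encodes the E2A proteins, which are required for B-cell development. Its leading probe set (1426297_at) read 10.03, 10.35, 10.17 and 10.37 on the log2 scale in the 4 TCDD arrays at 8 h, against 10.32, 10.76, 10.77 and 10.83 in the DMSO arrays. The TCDD array was the lower one on each of the 4 days, by 0.28 to 0.61, although the 2 groups overlapped because day 1 read low in both. The share of all probe sets with 1 direction on all 4 days was not computed. Such day counts, here and below, are given as a description. The difference of -0.44 ± 0.16 (SE, n = 4 arrays a group) was not called (limma, adjusted p = 0.167). With the replicate day as a block it was called (adjusted p = 0.00173), and 4.93% of all probe sets were called at 8 h in that fit. It was also called without replicate 1 (-0.49, adjusted p = 0.0147). At the later times the leading probe set differed by -0.20, -0.21, 0.09 and -0.02.

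A second Tcf3 probe set, 1427764_a_at, gave the only other TCDD call among the members, at 12 h. It read 9.48, 9.38, 9.42 and 9.30 in TCDD arrays, against 9.56, 9.72, 9.98 and 10.40 in DMSO arrays. The groups did not overlap, as held for 4.70% of all probe sets in this direction, and the highest value was that of DMSO replicate 4, the array with a median signal of 87.9. The difference was -0.52 ± 0.15 (limma, adjusted p = 0.0238), but it ranged from -0.08 to -1.10 over the 4 days. The call was lost without replicate 2 (adjusted p = 0.0871), replicate 3 (0.178) or replicate 4 (-0.33, 0.336), without the 4 arrays that stood apart (-0.36, 0.135), with no filter (0.0533) and when only the 8 arrays compared were fitted (0.232). The part of that array in the result beyond these values was not tested. The third Tcf3 probe set, 1452542_x_at, differed by -0.30 at 12 h and was not called at any time.

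Whether the TCDD difference of the members changed over time was tested across the 5 times. In the F test of the 4 contrasts between times, 0 of 21 member probe sets were called by limma, against 3.98% of all probe sets. The unadjusted limma p was under 0.05 for 1 of 21, 1427764_a_at, whose adjusted p was 0.0714. With the day as a block 2 of 21 were called, both of Tcf3, with adjusted p = 0.0332 for 1426297_at and 0.018 for 1427764_a_at, beside 9.97% of all probe sets, so this count was near the background. The 1427764_a_at differences were -0.37, -0.52, -0.09, 0.20 and 0.16 at 8, 12, 24, 36 and 48 h. For Bhlhe40 the same test gave an adjusted p of 0.441 without and 0.099 with the block.

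Tcf4 encodes the E protein known best for its role in plasmacytoid dendritic cells, and it is also expressed in B cells. Its leading probe set (1416723_at) read 11.47, 11.51, 11.62 and 11.57 in TCDD arrays at 8 h, against 11.45, 11.29, 11.29 and 11.42 in DMSO arrays. The TCDD arrays were all higher, as held for 4.59% of all probe sets in this direction, but the margin between the groups was small. The difference of 0.18 was not called (95% interval -0.02 to 0.38, limma adjusted p = 0.539). None of the 30 differences of the 6 Tcf4 probe sets was called, with values from -0.34 to 0.45, while 3 had an unadjusted p under 0.05. With the day as a block, 1424089_a_at (0.30, adjusted p = 0.0056) and 1416724_x_at (0.27, 0.0491) were called at 12 h, where 10.6% of all probe sets were, and 1434149_at (0.41, 0.0445) at 24 h, where 8.97% were. The leading probe set was not called in that fit.

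Tcf12 encodes HEB, the third E protein. None of its 25 TCDD differences over 5 probe sets was called, and they ran from -0.53 to 0.23. The leading probe set (1427670_a_at) differed by at most 0.18 in size, at 36 h (-0.18, 95% interval -0.36 to 0.00, limma adjusted p = 0.387), where the TCDD array was lower on all 4 days. The value of -0.53 was that of 1446294_at at 36 h (limma, adjusted p = 0.113). The arrays of the groups did not overlap there, as held for 4.80% of all probe sets in this direction.

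**Figure D2:**
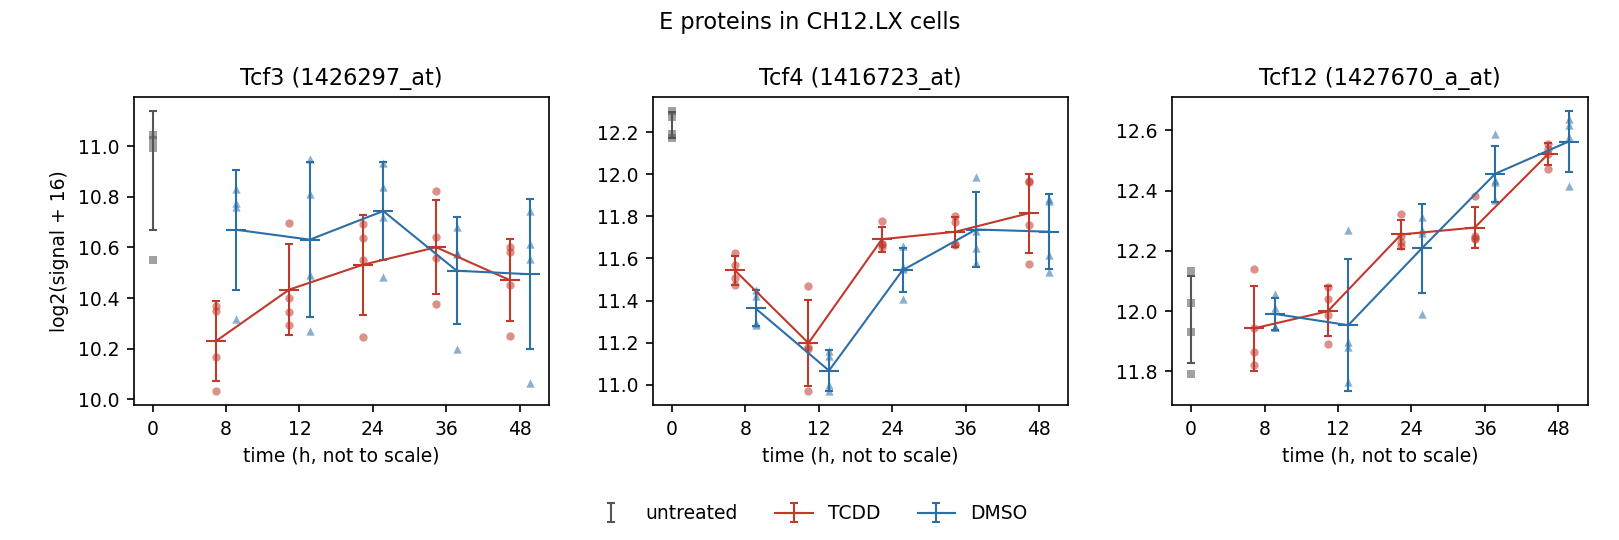
Log2 signals of the leading probe sets of Tcf3, Tcf4 and Tcf12 in each array (points) by time, with group means and SDs (bars, n = 4) for TCDD (red), DMSO (blue) and untreated cells (grey). For Tcf4 the untreated mean was 12.23 and the other group means were 11.07 to 11.82. Tcf12 reached means of 12.52 in TCDD and 12.56 in DMSO cells at 48 h against 11.97 in untreated cells.

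No Id gene was called different between TCDD and DMSO cells. None of the 25 differences over the 5 Id probe sets was called, and 0 had an unadjusted p under 0.05. Id2, the Id protein that restrains E proteins in activated and differentiating lymphocytes, read 11.61, 11.35, 10.73 and 11.28 at 8 h in TCDD arrays with its leading probe set (1435176_a_at), against 11.20, 11.23, 10.36 and 11.06 in DMSO arrays. TCDD was higher on each of the 4 days, by 0.12 to 0.41, although the groups overlapped. The difference was 0.28 (95% interval -0.28 to 0.84, limma adjusted p = 0.864), and at 48 h it was 0.07 (-0.49 to 0.63). The 3 Id2 probe sets did not give 1 direction, with differences of 0.28, 0.23 and -0.12 at 8 h and 0.21, -0.25 and -0.15 at 24 h.

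Id3, which is known to restrain E protein activity in germinal centre and follicular B cells, read 5.13, 5.23, 5.17 and 6.04 in TCDD arrays at 36 h, against 6.31, 6.01, 5.43 and 6.00 in DMSO arrays. TCDD was lower on 3 of the 4 days, and replicate 4 stood above the other TCDD arrays. The difference of -0.54 was not called (95% interval -1.24 to 0.15, limma adjusted p = 0.555). Id1, a BMP-induced Id protein, differed by -0.34, 0.12, 0.27, -0.41 and -0.22 at the 5 times, and was likewise not called. Id1 and Id3 signals were low, and their group SDs reached 0.56 and 0.90.

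**Figure D3:**
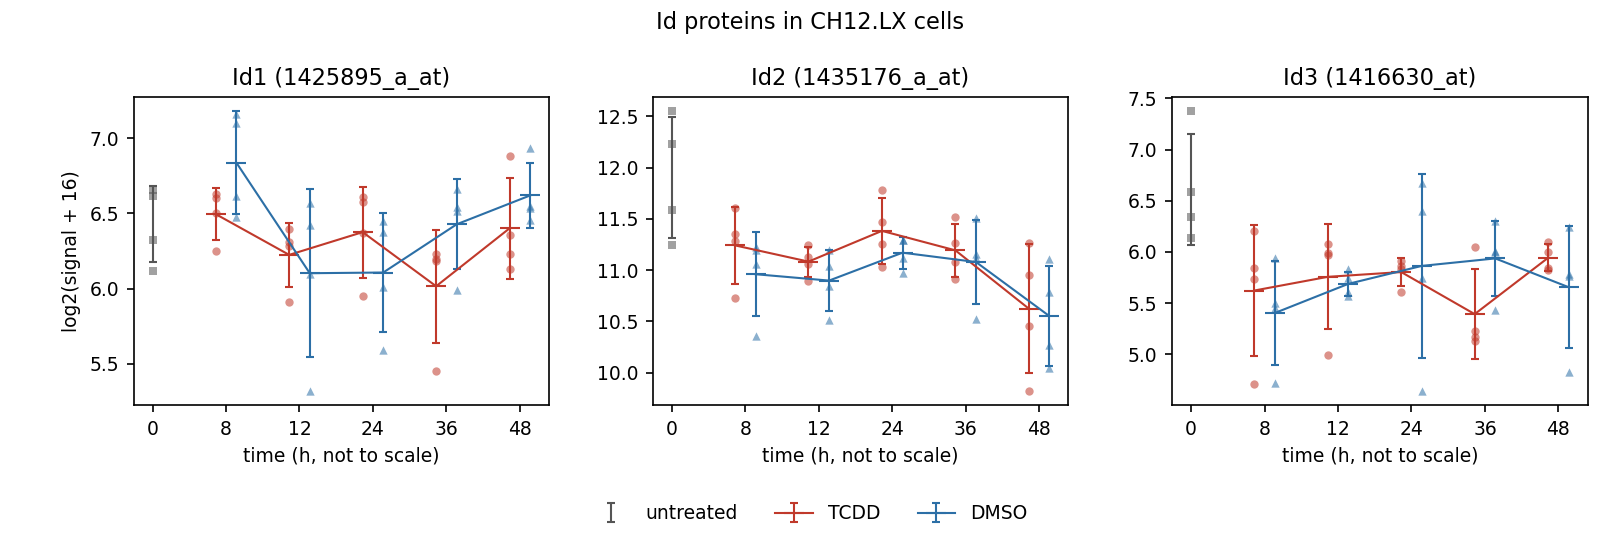
Log2 signals of the leading probe sets of Id1, Id2 and Id3 in each array (points) by time, with group means and SDs (bars, n = 4) for TCDD (red), DMSO (blue) and untreated cells (grey). TCDD and DMSO arrays overlapped at all times, and for Id2 means of 10.62 in TCDD and 10.55 in DMSO cells at 48 h stood against 11.90 in untreated cells.

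Among the Bhlhe factors, Bhlhe40 (1418025_at) gave the largest differences of the members. At 8 h it read 12.03, 12.33, 12.76 and 12.60 in TCDD arrays, against 10.93, 11.08, 11.82 and 11.78 in DMSO arrays. At 12 h it read 12.30, 12.37, 12.79 and 12.43 in TCDD arrays, against 10.94, 10.87, 11.64 and 10.85 in DMSO arrays. The lowest TCDD array stood above the highest DMSO array at both times, and days 3 and 4 at 8 h and day 3 at 12 h were high in both treatments. At 24 h it read 12.28, 12.24, 12.64 and 12.34 in TCDD arrays, against 11.37, 11.08, 11.59 and 11.04 in DMSO arrays. At 36 h it read 12.49, 12.45, 12.59 and 12.36 in TCDD arrays, against 11.50, 11.57, 11.97 and 11.67 in DMSO arrays. At 48 h it read 12.58, 12.73, 12.63 and 12.59 in TCDD arrays, against 12.06, 11.91, 11.94 and 11.67 in DMSO arrays. The groups did not overlap at any of the 5 times, which held for 0.618% of all probe sets tested in this direction.

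In fold terms, Bhlhe40 signal in TCDD cells was 2.04 times that in DMSO cells at 8 h, 2.64 times at 12 h, 2.16 times at 24 h, 1.73 times at 36 h and 1.67 times at 48 h. The log2 differences were 1.03, 1.40, 1.11, 0.79 and 0.74, each ± 0.18 (SE, n = 4 arrays a group). The adjusted p from limma was 2.39e-04 at 8 h, 8.34e-07 at 12 h, 3.38e-05 at 24 h, 5.26e-03 at 36 h and 7.49e-03 at 48 h. On the same day TCDD was higher in 4 of 4 pairs at each time, by 0.82 to 1.25 at 8 h, 1.15 to 1.58 at 12 h, 0.92 to 1.29 at 24 h, 0.62 to 0.98 at 36 h and 0.52 to 0.91 at 48 h. The calls at 12 h and 24 h were kept under all 13 alternative settings. The call at 8 h was lost when only the 8 arrays compared were fitted (adjusted p = 0.116), that at 36 h without replicate 1 (0.73, 0.064) or 2 (0.76, 0.117), and that at 48 h without replicate 2 (0.71, 0.126) or 4 (0.68, 0.0789).

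Over all times the TCDD arrays of Bhlhe40 spanned 12.03 to 12.79 with a median of 12.47, the DMSO arrays 10.85 to 12.06 with a median of 11.58, and the untreated arrays 12.46 to 12.68. Of the 20 TCDD arrays 10 lay below the lowest untreated array, and of the 20 DMSO arrays all 20 did. At single times, all DMSO arrays lay below all untreated arrays for 7.69% to 13.5% of all probe sets. The share was not computed for TCDD arrays or for the 5 times together. In the order of group means, the DMSO groups held the 5 lowest places, with 11.07 at 12 h as the lowest and 11.90 at 48 h as the highest of them, and the 5 TCDD groups and the untreated group at the top, from 12.38 for TCDD at 24 h to 12.63 for TCDD at 48 h. Neighbours in this order overlapped in their arrays except at the step between DMSO at 48 h and TCDD at 24 h. TCDD cells were not tested against untreated cells. Summed signals of other cell-type markers differed between the treatments at some of the same times. At 48 h the summed T-cell markers read 1025 to 1229 in TCDD arrays, against 710.8 to 887.6 in DMSO arrays. The summed myeloid markers read 1410 to 1716, against 1789 to 2333. At 12 h the myeloid sums were 1637 to 1775 in TCDD arrays, against 1219 to 1499 in DMSO arrays. Of the 4 tested T-cell markers 0 were called at 48 h. Of the 4 tested myeloid markers 1 was called higher and 2 lower at 48 h, and 1 higher and 0 lower at 12 h. Over all genes 3.73% were called higher and 3.84% lower at 48 h, and 5.35% and 2.50% at 12 h. The part of these markers in the Bhlhe40 result was not tested.

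Bhlhe41, the closest relative of Bhlhe40, did not show a called difference. At 12 h its leading probe set (1421099_at) read 7.05, 7.30, 7.43 and 7.71 in TCDD arrays, against 6.68, 6.79, 6.95 and 7.66 in DMSO arrays. TCDD was higher on all 4 days and the groups overlapped. The difference of 0.35 had a 95% interval of -0.19 to 0.88 (limma, adjusted p = 0.562), and at the other times it lay between 0.13 and 0.18. Whether the 2 genes differed in their response to TCDD was not tested. The second Bhlhe41 probe set, 1457096_at, had group means of 4.34 to 4.78, near the lowest possible value of 4, and was not tested.

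**Figure D4:**
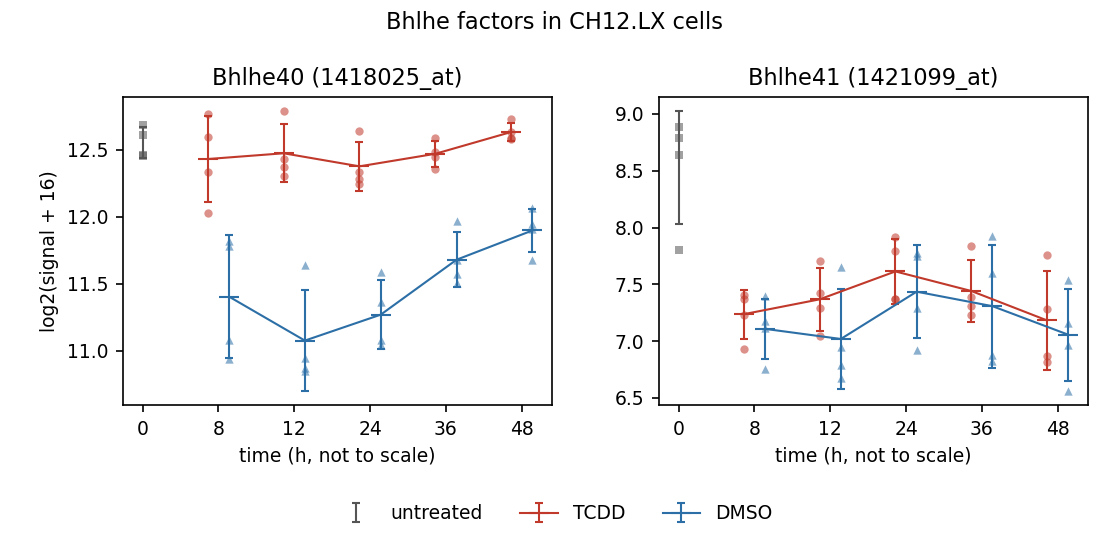
Log2 signals of the leading probe sets of Bhlhe40 and Bhlhe41 in each array (points) by time, with group means and SDs (bars, n = 4) for TCDD (red), DMSO (blue) and untreated cells (grey). For Bhlhe40 the means were 12.47 in TCDD and 11.07 in DMSO cells at 12 h and 12.55 in untreated cells, whereas for Bhlhe41 they were 7.37 in TCDD and 7.02 in DMSO cells at 12 h and 8.53 in untreated cells.

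Between LPS-treated vehicle cells and untreated cells, 10 to 15 of the 21 member probe sets were called at each time, and more of them lower than higher. Of 21 member probe sets, whose counts are read against 20.8%, 21.4%, 16.7%, 25.8% and 37.6% of all probe sets called in either direction at the 5 times, 13 were called lower at 8 h, 10 at 12 h, 9 at 24 h, 9 at 36 h and 13 at 48 h. Those called higher numbered 0, 0, 1, 2 and 2, and all were of Tcf12. Without Id3, which passed the filter only through its untreated mean, 12 of 20 were called lower at 8 h and 12 of 20 at 48 h. Over all probe sets tested, 9.93%, 10.5%, 7.69%, 12.9% and 19.1% were called lower, and 10.8%, 10.9%, 9.05%, 12.8% and 18.4% higher. Probe sets of 1 gene are not independent, and Tcf4 alone gave 5, 5, 5, 3 and 4 of the lower calls. By leading probe set 5, 4, 3, 4 and 6 of the 8 genes were called lower and 0, 0, 0, 1 and 1 higher. These gene counts include Id3 among the genes called lower at 8 h and 48 h. Over all genes 12.7%, 13.2%, 9.87%, 15.1% and 19.7% were called lower and 10.6%, 10.3%, 8.76%, 14.6% and 22.7% higher. The median difference over the 21 probe sets was -0.56, -0.77, -0.60, -0.47 and -0.55, against 0.02, 0.02, 0.02, 0.00 and -0.02 over all probe sets. The summed B-cell markers were also lower in these cells than in untreated cells, as given above, and their part in the result was not tested. These comparisons and those with TCDD use the same DMSO arrays.

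Tcf4 fell at every time. Its leading probe set read 10.97 to 11.16, with a mean of 11.07, in DMSO arrays at 12 h, against 12.27, 12.19, 12.30 and 12.17 in untreated arrays. The 2 groups were more than 1 apart on the log2 scale. At all 5 times each of the 20 DMSO arrays, and each of the 20 TCDD arrays, lay below the lowest untreated array. For the DMSO arrays of a single time this held for 9.07%, 8.64%, 7.69%, 10.8% and 13.5% of all probe sets at 8, 12, 24, 36 and 48 h. The share was not computed for TCDD arrays or for the 5 times together, so those counts are not read as results about Tcf4. The differences were -0.87, -1.17, -0.69, -0.50 and -0.51 at 8, 12, 24, 36 and 48 h, each ± 0.10 (SE), with limma adjusted p from 1.25e-11 at 12 h to 1.77e-04 at 36 h. The lowest point was thus at 12 h, where signal was 0.446 of that in untreated cells, and at 48 h it was 0.704. These 5 calls were kept under all alternatives run. Among the other probe sets, the 8 h call of 1434148_at was lost without replicate 1, 2 or 3 (-0.36 without replicate 3), its 24 h call without replicate 3, and the 8 h call of 1434149_at without replicate 1 or 2. Of the 30 differences of the 6 Tcf4 probe sets 22 were called lower and 0 higher, and the probe set not called at any time without the block was 1416725_at, which correlated least with the leading one (r = 0.529 over the 11 group means, against 0.876 to 0.970 for the other 4). With the day as a block 1416725_at was called at 12 h (-0.66, limma adjusted p = 0.0412) and 1434149_at at 36 h (0.0419).

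Tcf12 went the other way, and late. Its leading probe set read 12.64, 12.62, 12.42 and 12.58 in DMSO arrays at 48 h, against 12.13, 12.03, 11.93 and 11.79 in untreated arrays. The groups did not overlap at 36 h or 48 h, as held for 10.4% and 13.2% of all probe sets in this direction. The differences were 0.02, -0.02, 0.24, 0.49 and 0.59, each ± 0.09 (SE), and those at 36 h and 48 h were called (limma, adjusted p = 7e-05 and 1.4e-06) and kept under all alternatives. The difference at 24 h was called with the day as a block (adjusted p = 0.0243, against 0.0635 without). TCDD cells reached 12.56, 12.52, 12.47 and 12.54 at 48 h.

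A second Tcf12 probe set, 1421908_a_at, was higher by 0.61, 0.71 and 0.61 at 24, 36 and 48 h. It read 12.04, 10.60, 12.04 and 11.98 in DMSO arrays at 48 h, against 11.15, 11.29, 10.32 and 11.44 in untreated arrays. The low values were those of DMSO replicate 2 and untreated replicate 3, the arrays with the highest 3' to 5' ratios. Without replicate 3 the 3 calls were lost (0.37, 0.44 and 0.24, adjusted p = 0.357, 0.181 and 0.452), and without replicate 2 the 48 h value was 1.05. The 24 h call was also lost without replicate 1 or 4 and with no filter, the 48 h call without replicate 1, and all 3 calls with only the arrays compared. The other 3 Tcf12 probe sets were not called, and their correlations with the leading one over group means were 0.169, 0.359 and -0.527, so Tcf12 probe sets did not share 1 profile.

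The Tcf3 probe sets were called lower at some of the times. The leading probe set differed by -0.23, -0.27, -0.16, -0.39 and -0.41, and only the 48 h value was called (limma, adjusted p = 0.0362). That call was lost with only the arrays compared (0.171), with no filter (0.069), without the 4 arrays that stood apart (-0.31, 0.241) and without replicate 2 (0.154), 3 (0.0916) or 4 (0.101). With the day as a block the values at 12 h (adjusted p = 0.0217) and 36 h (0.000829) were called too, as was 1452542_x_at at 36 h (0.0419). For 1427764_a_at the readings at 48 h were 9.05, 9.67, 9.62 and 9.62 in DMSO arrays, against 10.08, 10.29, 10.35 and 10.23 in untreated arrays. The groups did not overlap there, as held for 13.5% of all probe sets in this direction. This probe set was called at 8, 24, 36 and 48 h (-0.52, -0.49, -0.63 and -0.75). Its 36 h and 48 h calls were kept under all alternatives. The 8 h call was lost without replicate 3 (-0.44, adjusted p = 0.144), and the 24 h call without replicate 2 (0.0539), replicate 3 (0.158) or the 4 arrays that stood apart (0.0849).

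Id2 was lower throughout the time course. Its leading probe set read 11.11, 10.79, 10.05 and 10.27 in DMSO arrays at 48 h, against 12.55, 12.23, 11.59 and 11.24 in untreated arrays. Every DMSO array was below every untreated one, as held for 13.5% of all probe sets at 48 h. Untreated replicates 3 and 4, which stood apart in technical measures, were lower than replicates 1 and 2. The differences were -0.94, -1.01, -0.73, -0.82 and -1.35, each ± 0.28 (SE), and were called by limma at 8 h (adjusted p = 0.0117), 12 h (0.00696), 36 h (0.0241) and 48 h (0.000142). With the day as a block the 24 h value was called as well (0.00141). Without the 4 arrays that stood apart the differences were larger, at -1.43 at 8 h and -1.31 at 36 h, and the 24 h value of -1.22 was called. The 8 h call was lost without replicate 2 (-0.92, 0.0883) and with only the arrays compared (0.113), the 12 h call under the same settings (-0.94, 0.0797, and 0.0839), and the 36 h call without replicate 1 (-0.75, 0.0523), without replicate 2 (-0.74, 0.164) and with only the arrays compared (0.135). The 48 h call was kept under all alternatives. Over the 3 Id2 probe sets 13 of 15 differences were called lower. Of the calls of the other 2 probe sets, those of 1453596_at were each lost without replicate 3, those at 8 h and 12 h also without replicate 2, and that of 1422537_a_at at 24 h without replicate 1 or 2, while it was -1.11 without the 4 arrays that stood apart.

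Id3 read 5.94, 5.50, 5.45 and 4.72 in DMSO arrays at 8 h, against 7.38, 6.14, 6.34 and 6.59 in untreated arrays. The groups did not overlap, as held for 9.07% of all probe sets in this direction, and untreated replicate 1 stood highest. The differences were -1.21, -0.92, -0.75, -0.67 and -0.95, each ± 0.34 (SE), and those at 8 h (limma, adjusted p = 0.00969) and 48 h (0.0265) were called. Id3 passed the filter only through its untreated mean of 6.61, all other group means being 5.39 to 5.94, so these calls draw on the values that let it pass. With no filter the adjusted p was 0.0183 at 8 h and 0.047 at 48 h. The 8 h call was lost with only the arrays compared (0.0568), and with a pseudocount of 64 its value was -0.69. The 48 h call was lost without replicate 1 (-0.42, adjusted p = 0.396), without replicate 2 (-1.15, 0.0552), without the 4 arrays that stood apart (-1.14, 0.0601), with only the arrays compared (0.0886) and with a pseudocount of 1 (0.0539), while a pseudocount of 64 gave -0.56. With the day as a block the 12 h value was called (0.0409). Id1 was not called at any time, and its differences were 0.41, -0.33, -0.32, 0.00 and 0.19.

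Bhlhe40 fell in vehicle cells at every time, most at 12 h and least at 48 h. Set against its untreated readings of 12.46, 12.68, 12.61 and 12.46, the DMSO readings given above differed by -1.15 at 8 h, -1.48 at 12 h, -1.28 at 24 h, -0.87 at 36 h and -0.66 at 48 h. Signal in DMSO cells was 0.451 of the untreated level at 8 h, 0.359 at 12 h, 0.411 at 24 h, 0.546 at 36 h and 0.635 at 48 h. All 5 differences were called (limma, adjusted p from 4.42e-08 at 12 h to 0.00304 at 48 h) and were kept under all alternatives.

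Bhlhe41 fell at every time as well. It read 6.97, 7.16, 6.56 and 7.54 in DMSO arrays at 48 h, against 7.80, 8.79, 8.64 and 8.88 in untreated arrays. Untreated replicate 1 was the low one of its group. The groups still did not overlap at that time, as held for 13.5% of all probe sets in this direction. The differences were -1.42, -1.51, -1.09, -1.22 and -1.47, each ± 0.26 (SE), all called (limma, adjusted p from 2.32e-05 at 48 h to 0.00284 at 24 h). The 24 h call was lost without replicate 3 (-1.01, adjusted p = 0.0523), without the 4 arrays that stood apart (-0.86, 0.074) and with only the arrays compared (0.0603). TCDD arrays of Bhlhe41 were low as well, and 18 of 20 lay below the lowest untreated array, as did 19 of 20 DMSO arrays. Shares over all probe sets were not computed for these counts, so they are not read as results about Bhlhe41. Whether the course of the 2 Bhlhe genes differed was not tested. Bhlhe40 and Bhlhe41 were among the probe sets called lower at all 5 times, as were 2.60% of all probe sets tested. Other members shared this, among them the leading probe set of Tcf4 and 1422537_a_at of Id2.

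Over the 11 group means, which share the untreated and vehicle arrays and are given as a description, Bhlhe41 correlated with Id2 (r = 0.887) and Id3 (r = 0.792), and less with Bhlhe40 (r = 0.442). The untreated mean was the highest for Bhlhe41 (8.53, others up to 7.61), Id2 (11.90, others up to 11.38) and Id3 (6.61, others up to 5.94). Their r values, with each other and with the genes below, therefore draw on that group, and Id3 passed the filter only through it. Correlations without the untreated group were not computed. The genes whose leading probe sets were most like each member over these 11 means were Fdx1 (r = 0.951) and Abhd6 (0.935) for Bhlhe40, Tgfbr1 (0.956) and Zbtb2 (0.941) for Bhlhe41, She (0.877) and Col14a1 (0.832) for Id1, and Zbtb1 (0.937) and Btk (0.928) for Id2. They were Plekhm3 (0.915) and Zbtb2 (0.878) for Id3, Isoc1 (0.921) and Srl (0.910) for Tcf3, Scd1 (0.964) and Zhx1 (0.941) for Tcf4, and Efcab11 (0.982) and Pla1a (0.981) for Tcf12.

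Circadian clock genes were read from a list of 20 that holds E-box factors and also D-box factors, nuclear receptors and kinases of the clock, of which 19 had a named probe set and 15 were tested. Between TCDD and DMSO cells 1, 2, 0, 1 and 3 of the 15 were called lower at 8, 12, 24, 36 and 48 h, and 0 were called higher. Over the leading probe sets of all 11970 genes tested, 1.09%, 2.50%, 2.05%, 1.82% and 3.84% were called lower at these times. The median of the list was -0.06, -0.27, -0.10, -0.04 and -0.16, against -0.01, 0.01, -0.02, -0.01 and -0.02 over all genes. The recurring gene was Nfil3, a repressor of D-box clock genes that also acts in lymphocytes, with means of 10.92 in TCDD and 11.67 in DMSO cells at 48 h. Its differences were -0.69, -0.55, -0.41, -0.68 and -0.75, of which those at 8, 12, 36 and 48 h were called (limma, adjusted p = 0.00502, 0.0219, 0.00472 and 0.00106), and TCDD was lower on all 4 days at each time. Each of these 4 calls was lost without replicate 2 and under at least 1 other setting, and the highest adjusted p over the alternatives was 0.0963, 0.249, 0.0974 and 0.0965. Nr1d2, the clock repressor REV-ERB beta, was lower in TCDD cells at 12 h and 48 h, with differences of -0.62 and -0.53 (limma, adjusted p = 0.01 and 0.0303). Both calls were lost without replicate 2 or 3, and that at 48 h also without replicate 1. Csnk1e, a kinase of Period proteins, differed by -0.44 at 48 h (0.0455, kept under 6 of 13 alternatives).

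**Figure D5:**
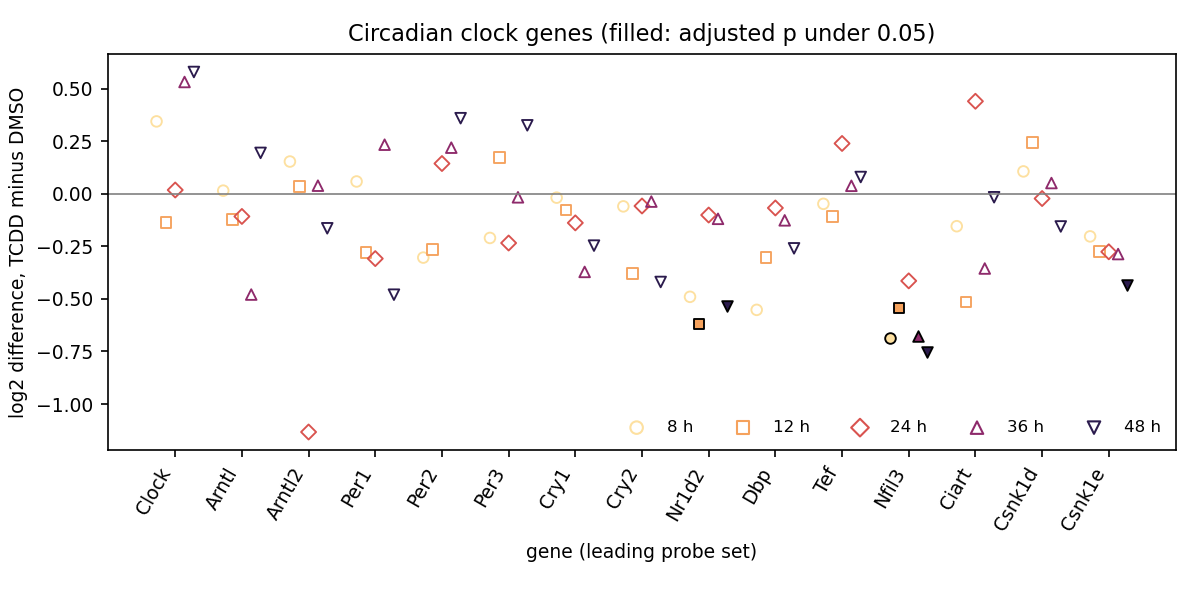
Log2 differences between TCDD and DMSO cells at 5 times (symbols) for the leading probe sets of the 15 tested clock genes, filled where the adjusted p was under 0.05. All 7 filled symbols lie below 0, 4 of them of Nfil3, 2 of Nr1d2 and 1 of Csnk1e.

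In DMSO cells set against untreated cells, 0, 0, 1, 2 and 3 of the 15 clock genes were called higher and 2, 2, 3, 3 and 2 lower, where 10.6%, 10.3%, 8.76%, 14.6% and 22.7% of all genes were called higher and 12.7%, 13.2%, 9.87%, 15.1% and 19.7% lower. Per1, a core negative-limb clock gene, differed by -1.17 at 8 h and Tef, a D-box activator, by -0.66. Without the 4 arrays that stood apart the Per1 value was -0.67 and was still called. The Tef call was lost without replicate 3 (-0.42, limma adjusted p = 0.0918). At 48 h Nfil3 differed by 1.70, Per2 by -1.23 and Csnk1e by 1.12.

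E protein partners, cofactors and regulators formed a list of 17, of which 15 were tested. Between TCDD and DMSO cells 1, 1, 1, 0 and 0 were called higher and 0, 1, 0, 0 and 1 lower, against 2.40%, 5.35%, 4.24%, 3.06% and 3.73% higher and 1.09%, 2.50%, 2.05%, 1.82% and 3.84% lower over all genes. Kat2b, an acetyltransferase that serves as an E protein coactivator, was higher in TCDD than in DMSO cells, by 0.70, 0.85 and 0.42 at 8, 12 and 24 h (limma, adjusted p = 0.000151, 4.22e-06 and 0.0273). Its means were 10.02 in TCDD and 9.17 in DMSO cells at 12 h. The 12 h call was kept under all alternatives, while that at 8 h was lost with only the arrays compared (0.0756) and that at 24 h without replicate 2, 3 or 4, among others. Notch2, whose signalling lowers E protein activity, differed by -0.70 at 12 h (0.00377), and Zeb1, a repressor that binds E-boxes, by -0.34 at 48 h (0.029). The Notch2 call was lost without replicate 2 or 4, and the Zeb1 call without any 1 of the 4 replicates. In DMSO cells against untreated cells Lmo2, a bridging partner in E protein complexes, differed by 0.76 at 8 h and 2.72 at 48 h. Its 8 h call was lost without the 4 arrays that stood apart (0.39, limma adjusted p = 0.344). Lyl1, a dimer partner, differed by -1.30 and -1.33 at these times, and Cbfa2t3, a corepressor, by -0.93 and -1.80. The counts of 15 were 3 higher and 3 lower at 8 h and 5 higher and 5 lower at 48 h. Over all genes 10.6% were called higher and 12.7% lower at 8 h, and 22.7% higher and 19.7% lower at 48 h.

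Of 18 B-cell and plasma-cell genes known as E protein targets, 15 had a named probe set and 13 were tested. Between TCDD and DMSO cells 2, 2, 2, 2 and 3 were called higher and 0, 0, 0, 2 and 1 lower. Over all genes 2.40%, 5.35%, 4.24%, 3.06% and 3.73% were called higher and 1.09%, 2.50%, 2.05%, 1.82% and 3.84% lower. Ebf1, the factor that acts with E proteins in B-cell commitment, was higher in TCDD than in DMSO cells late, by 0.95, 0.97 and 1.01 at 24, 36 and 48 h. Its means were 10.46 in TCDD and 9.45 in DMSO cells at 48 h. The limma adjusted p was 0.000104, 0.00014 and 6.3e-05, and the 48 h call was lost with only the arrays compared (0.0648). Vpreb1, a surrogate light chain gene, was also higher in TCDD than in DMSO cells late, by 1.71 and 1.32 at 36 and 48 h (limma, adjusted p = 0.00947 and 0.0454). Its means at 36 h were 6.28 in TCDD cells and 4.57, near the lowest possible value, in DMSO cells. Vpreb1 had a mean of 5.25 over all arrays, under the filter cut of 6.21, so it passed only through its higher group means. Its 36 h value was 2.98 with a pseudocount of 1 and 0.81 with one of 64. Its 36 h call was lost without replicate 2 or 4, and its 48 h call was kept under 3 of 12 alternatives. Vpreb1 fell in DMSO cells against untreated cells, by -1.90 at 36 h and -1.67 at 48 h. TCDD cells were not tested against untreated cells, so a rise of Vpreb1 under TCDD is not shown. Xbp1 and Prdm1, regulators of plasma-cell differentiation, were called in both directions between TCDD and DMSO cells. Xbp1 differed by 0.46 and 0.59 at 8 h and 12 h and by -0.27 and -0.39 at 36 h and 48 h. Prdm1 differed by 0.49 at 8 h and -0.57 at 36 h. A test across times is not given for either gene. The 8 h call of Prdm1 was lost without any 1 of the replicates and its 36 h call without replicate 1 or 2, while for Xbp1 the 36 h call was lost without replicate 1, 2 or 3. In DMSO cells against untreated cells 5 of 13 were called lower and 2 higher at 8 h and 3 lower and 4 higher at 48 h, where 12.7% and 10.6% of all genes at 8 h and 19.7% and 22.7% at 48 h were called lower and higher. Prdm1 differed by 1.98 and 2.18 at these times, Il7r, the interleukin-7 receptor, by -1.82 and -1.80, Cd79b, a B-cell receptor chain, by -1.31 at 8 h and Cdkn1a, a cell-cycle inhibitor, by 1.70 at 48 h.

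BMP and TGF-beta signalling induces Id genes, and 16 of a list of 21 of its genes were tested. Between TCDD and DMSO cells 0, 1, 1, 0 and 0 were called, beside 3.48%, 7.84%, 6.29%, 4.88% and 7.58% of all genes. They were Bmp7 at 12 h (1.18, limma adjusted p = 0.0333, kept under 6 of 12 alternatives) and the receptor Tgfbr2 at 24 h (0.46, 0.0253, lost without replicate 1, 2 or 3). In DMSO cells against untreated cells 5 were called lower and 1 higher at 8 h and 5 lower and 4 higher at 48 h, beside 23.3% and 42.4% of all genes called in either direction. At 8 h the receptors Tgfbr2 and Tgfbr1 differed by -1.31 and -1.25 and Smad7, an inhibitor of the pathway, by -0.88. At 48 h the ligand Bmp6 differed by 1.78, Tgfbr1 by -1.34 and the signal transducer Smad2 by -1.09. Bmp6 had a mean of 5.65 over all arrays, under the filter cut of 6.21, so it passed only through its higher group means. Its 48 h value was 2.75 with a pseudocount of 1 and 0.90 with one of 64.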

How the data were processed

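Expression was measured in 44 samples, with 1 Affymetrix Mouse430_2 array for each. The authors deposited linear signal intensities from GCOS 1.0, per the submitters' processing notes. The mean of every column, computed without the top and bottom 2%, was 500.0. Further processing before deposit is not given in the sources used here. Column medians of log2(value + 16) spanned 0.913, above a limit of 0.2, so the 45037 probe sets that are not controls were quantile normalized and turned into log2(value + 16). The tests covered the 25237 probe sets with at least 1 group mean over 6.21 (the overall median). Gene names come from the platform annotation, matched to RefSeq by gene identifier. Precision is limited by the number of arrays, and no probe set was set against another in level.

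The tests used limma 3.58.1 in R 4.3.3, with 1 fit of 11 group means over all arrays, two-sided tests and Benjamini-Hochberg adjustment over all probe sets tested, and a threshold of 0.05. The spread behind each p is that of cultures of 1 line grown on separate days. The series' design text says that same-numbered replicates share a day. The median correlation of deviations from the group means was 0.171 between same-numbered arrays and -0.0604 between the others, and 18 of 20 pairs of TCDD and DMSO arrays had r above 0.1. On simulated data for TCDD against DMSO at 24 h over 25237 probe sets, limma recovered 26%, 62%, 92% and 96% of probe sets changed 1.5-, 2-, 3- and 4-fold. The simulated arrays shared no day, and only 50 probe sets were changed at each fold, whereas 1197 were called at 24 h in the data. These shares are therefore not the power of the tests above.

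The members and lists were chosen with earlier results of these data known. Named beside the 8 members were, per list, up to 4 called genes with the largest TCDD difference and up to 3 called genes at 8 h and at 48 h for DMSO against untreated cells, the 2 genes most like each member over group means, and Cyp1a1 and Tiparp. Alternatives were the replicate day as a block, only the arrays compared, no filter, a stricter filter at percentile 75 and values as deposited. Others were pseudocounts of 1 and 64, leaving out the 4 arrays that stood apart or each replicate, and 1 probe set per gene. In the test across times, the arrays compared were all TCDD and DMSO arrays. Plots were made in Python 3.11.15 with matplotlib 3.10.9.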

Additional observations from a re-analysis of the deposited data

Results flagged for a closer look

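In 88 sets of 4 arrays (8 leading probe sets in 11 groups), 9 had 1 array far from the other 3 by Dixon's test at the 95% level, and chance gives about 1 in 20 such sets. For Bhlhe40, DMSO 12 h replicate 3 read 11.64, against 10.85 to 10.94 in the others. For Id1, TCDD 36 h replicate 3 read 5.45, against 6.18 to 6.23. For Id3, TCDD 12 h replicate 3 read 4.99, against 5.97 to 6.08, and TCDD 36 h replicate 4 read 6.04, against 5.13 to 5.23. For Tcf3, untreated replicate 1 read 10.55, against 10.99 to 11.04, and DMSO 8 h replicate 1 read 10.32, against 10.76 to 10.83. For Tcf4, TCDD 24 h replicate 1 read 11.78, against 11.65 to 11.67. For Tcf12, DMSO 24 h replicate 1 read 11.99, against 12.26 to 12.31, and TCDD 36 h replicate 1 read 12.38, against 12.24 to 12.25.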

How the results depend on the processing

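Of 65 called member differences, 39 kept the call in every alternative run and 26 lost it in at least 1, over 796 runs with 73 losses. Of 145 uncalled ones, 15 gained a call in at least 1 of 1714 runs. None of these reversed. The cause was not tested. With the replicate block, which uses the pairing by day, 2, 4 and 2 member probe sets were called between TCDD and DMSO cells at 8, 12 and 24 h. Without it 1, 2 and 1 were called. Over all probe sets the block called 4.93%, 10.6% and 8.97% at these times, against 2.52%, 5.80% and 4.74% without it. In the test across times 2 member probe sets were called with the block, against 0, beside 9.97% of all probe sets, against 3.98%. With only the arrays compared, fewer arrays inform the spread, and 0 and 1 were called for TCDD at 8 h and 12 h, and 7 and 5 for DMSO against untreated cells at 8 h and 24 h, against 13 and 10. With no filter 1 was called for TCDD at 12 h. With the stricter filter, which tested 12 member probe sets, 1 was called across times. Leaving out 1 replicate gave 1 to 2 calls for TCDD at 8 h, 1 to 2 at 12 h, 1 at 24 h, 0 to 1 at 36 h and 0 to 1 at 48 h. For DMSO against untreated cells it gave 9 to 12 at 8 h, 8 to 11 at 12 h, 6 to 10 at 24 h, 9 to 11 at 36 h and 12 to 15 at 48 h, and across times 0. Except for the block, shares over all probe sets are not given for these settings, so these counts are not read as results about the members. Of 186 called differences of list genes, 101 kept the call in every alternative run.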
